A study of Mus musculus with 10 samples.

Results

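Hox genes are homeobox transcription factor genes that give cells their position along the body axis. In the mouse they lie in clusters, in which the order of the genes follows the order of their expression from head to tail. In the neural tube they are expressed from the hindbrain backwards, and the midbrain lies in front of this Hox domain. In tissue that does not express them the clusters are known to be held silent by Polycomb repressors. The peaks described here are all ATAC-seq peaks that overlapped the 4 mouse Hox clusters, chosen by position alone: HoxA on chromosome 6 from 52.12 to 52.26 Mb, HoxB on chromosome 11 from 96.07 to 96.28 Mb, HoxC on chromosome 15 from 102.81 to 102.96 Mb and HoxD on chromosome 2 from 74.48 to 74.61 Mb (mm39). These windows cover 630 kb. They held 98 of the 202366 peaks in 10 libraries, a peak being a stretch of the genome where the peak caller found more transposase cuts than its local background.

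ATAC-seq, in which the Tn5 transposase cuts open chromatin, had been run on nuclei of the ventral tegmental area, a midbrain region with dopamine neurons. All mice were adults older than postnatal day 60 with the genotype ArcCreERT2 x Sun1/+. Arc is an immediate early gene of active neurons, so the nuclear Sun1 tag depends on recombination in cells that use the Arc promoter, and tagged nuclei were pulled out on magnetic beads. Each library came from a single animal: 3 stressed activated libraries (early-life stress), 2 standard-reared activated libraries, 3 stressed non-activated libraries and 2 standard-reared non-activated libraries. The 10 libraries came from 6 animals, of which 4 gave both classes, and the 2 standard-reared non-activated libraries were both from females. No markers of midbrain or of any cell type could be read, since single genes could not be placed in mm39 with the tables used here.

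The 4 clusters hold 38 member genes. HoxA runs in rising coordinates through Hoxa2, Hoxa3, Hoxa4, Hoxa5, Hoxa6, Hoxa7, Hoxa9, Hoxa10, Hoxa11 and Hoxa13. HoxB runs the other way, through Hoxb13, Hoxb9, Hoxb8, Hoxb7, Hoxb6, Hoxb5, Hoxb3, Hoxb4, Hoxb2 and Hoxb1. HoxC runs from Hoxc13 through Hoxc12, Hoxc11, Hoxc10, Hoxc9, Hoxc8, Hoxc6 and Hoxc5 to Hoxc4, and HoxD from Hoxd13 through Hoxd12, Hoxd11, Hoxd10, Hoxd9, Hoxd8, Hoxd3 and Hoxd4 to Hoxd1. This order is that of the RefSeq gene table by start position. It departs from the order by number at Hoxb3 and Hoxb4 and at Hoxd3 and Hoxd4, so no head-to-tail order should be read from it there. Low-numbered members such as Hoxa2 and Hoxb1 pattern the hindbrain, members such as Hoxc8, Hoxc9 and Hoxd10 pattern the spinal cord and its motor neurons, and Hoxa13 and Hoxd13 pattern the ends of the limbs and the trunk.

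Many Hox promoters are rich in CpG, a base pair step that is rare elsewhere in the genome and common at promoters that are open in many tissues. RefSeq promoter sequences (GRCm38.p6) were at hand for 22 of the 38 members. Their 250 bases upstream of the start held a median of 13 CpG (3 to 35), against a median of 6 in 27025 genes of that table. The ratio of observed to expected CpG was above 0.6 in 13 of the 22 members (59.1%), against 36.4% of all genes. The clusters had unequal numbers of sequences, so their highest values do not compare them. Within HoxA and HoxD the number of CpG fell to 3, in Hoxa9 and Hoxd4. The member with the most CpG in each cluster is printed from 5′ to 3′, in the direction of transcription and with CpG in capitals. These positions are in GRCm38.p6, another build than that of the peaks, so no peak is placed on them. Hoxa13 lies at chr6:52260881-52261130 on the minus strand with 35 CpG, and Hoxb4 at chr11:96318017-96318266 on the plus strand with 14. Hoxc4, the only HoxC member with a sequence, lies at chr15:103034145-103034394 on the plus strand with 8 CpG, and Hoxd13 at chr2:74667975-74668224 on the plus strand with 31. Hoxa13, Hoxb4 and Hoxd13 have an observed to expected ratio of 0.875, 0.760 and 0.901, while that of Hoxc4 is 0.340, below the median of 0.402 over all genes, so the Hoxc4 promoter is not CpG-rich.
Hoxa13: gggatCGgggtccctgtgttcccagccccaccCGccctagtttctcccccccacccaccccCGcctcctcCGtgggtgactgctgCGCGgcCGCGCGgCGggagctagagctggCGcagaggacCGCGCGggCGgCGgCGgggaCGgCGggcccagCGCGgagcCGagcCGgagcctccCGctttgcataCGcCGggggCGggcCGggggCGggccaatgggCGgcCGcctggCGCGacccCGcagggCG
Hoxb4: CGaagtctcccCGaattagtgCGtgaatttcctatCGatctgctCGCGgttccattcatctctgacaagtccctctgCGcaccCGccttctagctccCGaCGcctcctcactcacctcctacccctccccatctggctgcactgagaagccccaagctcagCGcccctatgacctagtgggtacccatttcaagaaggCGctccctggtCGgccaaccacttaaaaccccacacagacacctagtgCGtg
Hoxc4: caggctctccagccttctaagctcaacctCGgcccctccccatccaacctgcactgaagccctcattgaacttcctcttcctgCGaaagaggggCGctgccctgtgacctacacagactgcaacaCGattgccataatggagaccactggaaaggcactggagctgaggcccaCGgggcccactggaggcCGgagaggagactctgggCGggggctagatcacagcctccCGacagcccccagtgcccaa
Hoxd13: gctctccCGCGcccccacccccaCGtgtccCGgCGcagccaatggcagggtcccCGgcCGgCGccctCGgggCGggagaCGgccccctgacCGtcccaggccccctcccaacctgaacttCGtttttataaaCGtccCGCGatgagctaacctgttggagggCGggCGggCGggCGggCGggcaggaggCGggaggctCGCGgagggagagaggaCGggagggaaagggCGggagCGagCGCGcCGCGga

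The Hox clusters held few peaks in 8 of the 10 libraries and many in the other 2. In the stressed activated libraries the 4 clusters together held 3, 1 and 3 peaks (replicates 1 to 3), and in the standard-reared activated libraries 46 and 5 (replicates 1 and 2). In the stressed non-activated libraries they held 37, 1 and 0 peaks, and in the standard-reared non-activated libraries 0 and 2. Both high libraries, standard-reared activated replicate 1 and stressed non-activated replicate 1, are those with the longest lists, 39783 and 50786 peaks, against 7076 to 19710 in the other 8. Together they gave 83 of the 98 Hox peaks. The 2 longest lists thus had the most Hox peaks, but the order did not follow list length throughout. The list of 50786 peaks had 37 Hox peaks and that of 39783 had 46. Among the other 8, the longest (19710 peaks) had 1 and the list of 17283 peaks had 5. In lists of 1 length, given below, all 10 libraries had 0 Hox peaks, so that setting cannot tell these 2 libraries from the others.

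To set the clusters beside their surroundings, peaks were counted in 2 flanks of each cluster, each as long as the cluster and directly beside it. Averaged over the 2 sides, the flanks held 4, 6.5 and 4.5 peaks in the stressed activated libraries, and 18 and 6 in the standard-reared activated ones. They held 21.5, 3 and 2.5 peaks in the stressed non-activated libraries, and 2.5 and 3 in the standard-reared non-activated ones. The clusters thus held more peaks than their flanks in the 2 longest lists, and fewer in each of the other 8. Per animal, the mean log2 ratio of Hox to flank peaks was -0.61 ± 1.20 (SD, n = 6 animals), above 0 in 2 animals and below 0 in 4. This did not exceed the spread between animals (two-sided exact sign-flip permutation p = 0.219, where the smallest possible is 0.0313; adjusted p = 0.365 over the pooled value and the 4 single clusters).

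**Figure D1:**
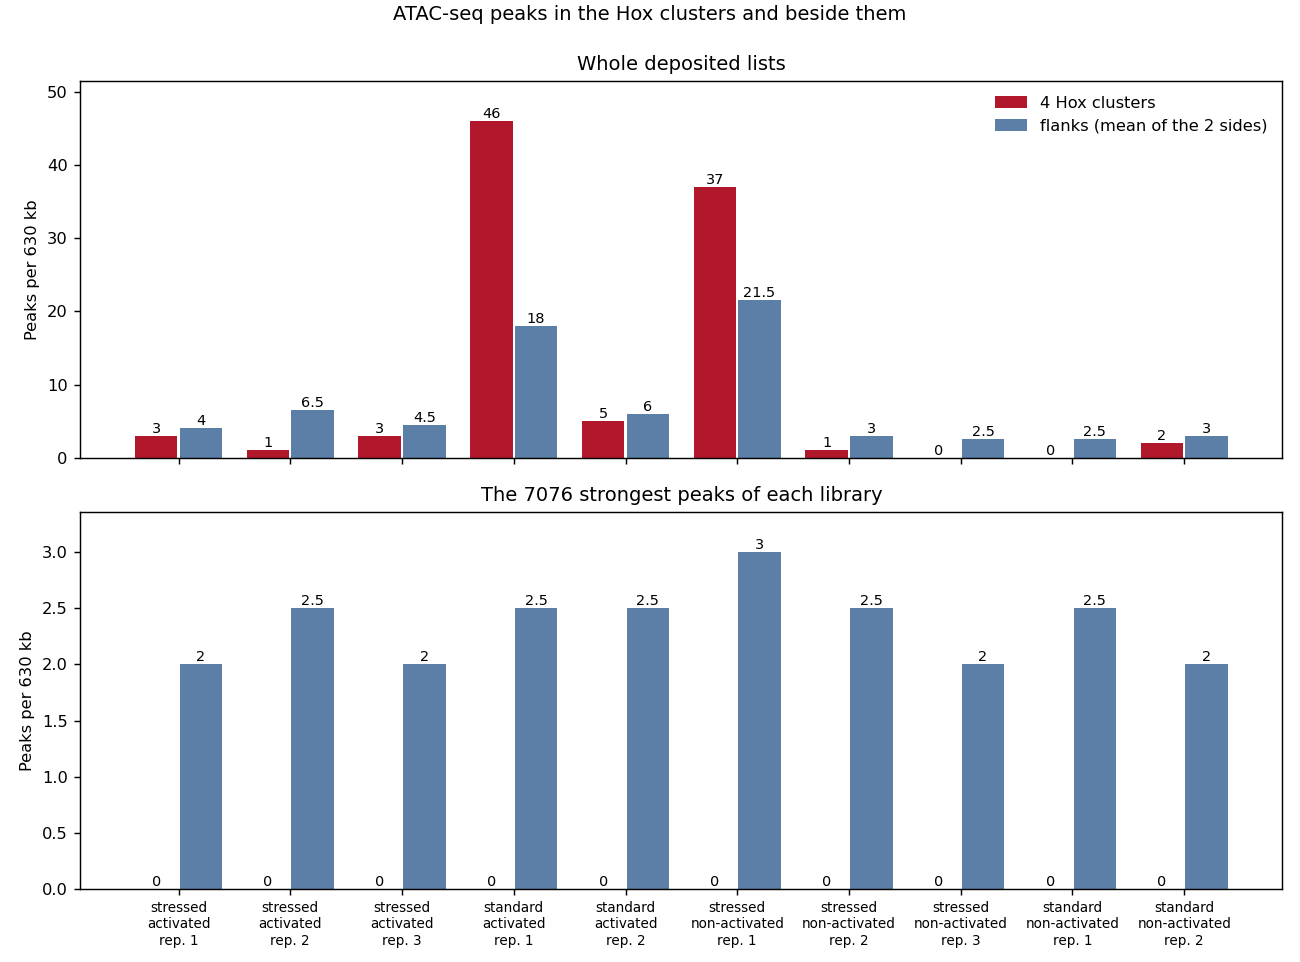
Number of peaks per 630 kb (bars, linear axes from 0) in the 4 Hox clusters (red) and in their flanks (blue, mean of the 2 sides) for each library, in the whole deposited lists (top) and among the 7076 strongest peaks of each library (bottom). In the whole lists the clusters reach 46 and 37 peaks in 2 libraries and 0 to 5 in the other 8, and among the strongest peaks they are at 0 in all 10.

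No Hox peak was among the strongest peaks of any library. The shortest list had 7076 peaks, and when every list was held to its 7076 strongest by -log10 q, the Hox clusters held 0 peaks in all 10 libraries. The flanks, at both sides together, still held 4 to 6. With equal lists the log2 ratio of Hox to flank peaks, a value that depends on the 0.5 peaks added to each count because the clusters are at 0, was -2.49. It was below 0 in every animal, since every library had 0 Hox peaks and some flank peaks. The p thus had to take its smallest possible value (two-sided exact sign-flip permutation p = 0.0313). The alternatives of this ratio had p from 0.0313 to 0.375 by the same test. The main comparison is that of the whole lists. As a share of the 630 kb, peaks covered 0% to 2.27% of the clusters and 0.150% to 1.29% of the flanks in the whole lists. The log2 ratio of covered bases was -1.21 ± 1.43 (SD, n = 6 animals; two-sided exact sign-flip permutation p = 0.0938), and 8 of the 10 libraries had the lower value in the clusters.

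No Hox peak ranked near the top of its own list, and in standard-reared activated replicate 1 the typical Hox peak was close to the middle. In standard-reared activated replicate 1 the 46 Hox peaks had a median percentile of 45.5 by -log10 q and reached 75.4 at most, while the flank peaks had a median of 49.7 and reached 98.4. In stressed non-activated replicate 1 the 37 Hox peaks had a median percentile of 18.1 and a highest of 69.9, against 48.0 and 99.6 for its flank peaks. The best Hox peak of the other libraries with any ranged from percentile 15.2 to 49.6. Flank peaks at percentile 84.7 or above were found in every library. The highest Hox fold over background was 9.15, in stressed non-activated replicate 1, where the list reached 28.1.

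**Figure D2:**
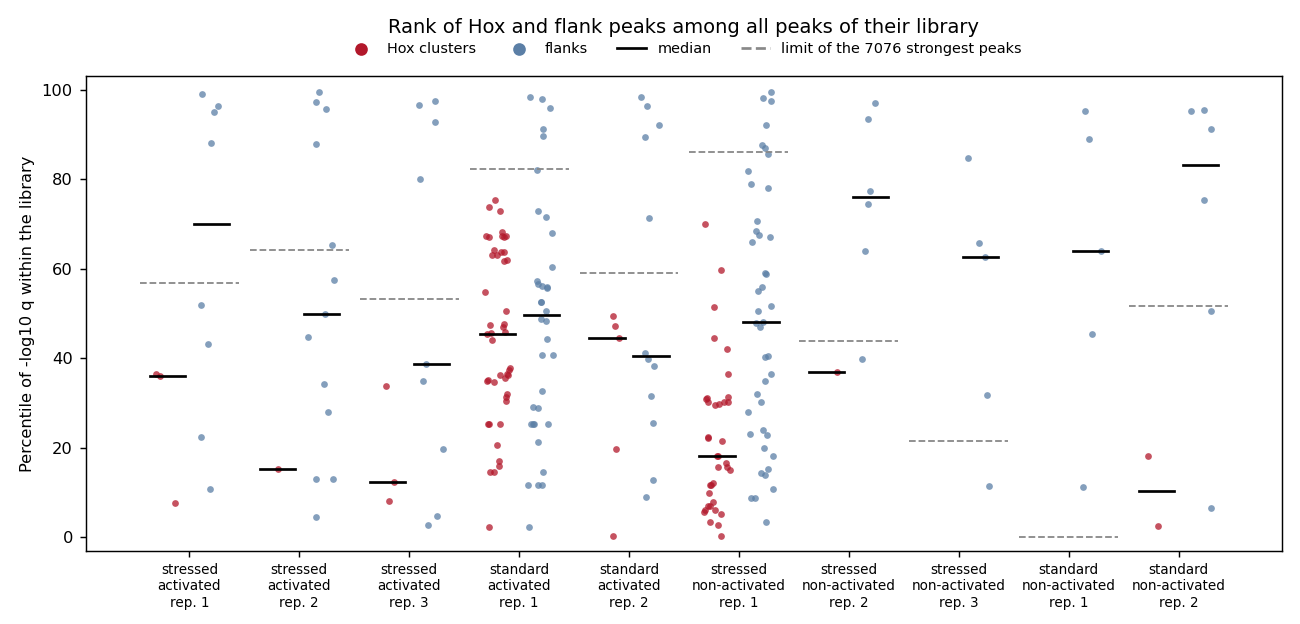
Percentile of -log10 q within its own library (y axis) for each Hox peak (red points) and each flank peak (blue points), by library, with medians (black lines) and the limit of the 7076 strongest peaks (dashed grey). No Hox peak reaches that limit, while flank peaks lie above it in every library, up to percentile 99.6.

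Against the genome as a whole, the picture depended on the library. The windows make up 0.0232% of the span of the chromosomes, so an even spread of peaks would place 2.32 of every 10000 peaks in them. Hox peaks made up 1.83, 0.507 and 1.98 of every 10000 peaks in the stressed activated libraries, 11.6 and 2.89 in the standard-reared activated ones, 7.29, 0.795 and 0 in the stressed non-activated ones, and 0 and 1.37 in the standard-reared non-activated ones. The 2 longest lists and standard-reared activated replicate 2 were above the even spread, and the other 7 libraries were below it. Peaks are not spread evenly in any list: of stretches of 140 kb, the length of HoxA, 23.9% to 61.8% held a peak at all, depending on the library.

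The 4 clusters were not alike. HoxD was the densest, with 36 peaks in 130 kb, followed by HoxA with 29 in 140 kb. HoxC, with 14 in 150 kb, and HoxB, with 19 in 210 kb, were sparser. HoxB and HoxC peaks were found in the 2 longest lists alone, whereas HoxA and HoxD peaks were also found in 5 and 4 of the other 8 libraries. HoxD held 15 peaks in standard-reared activated replicate 1 and 14 in stressed non-activated replicate 1, where its flanks had 2 and 2, and 1 and 4. Genome stretches of the same 130 kb held a median of 1 peak in both lists, and 95% of them held at most 7 and 9. HoxA held 14 and 7 peaks in those lists, beside flanks of 3 and 4, and 3 and 3. For stretches of the length of HoxA the 95th percentile was 7 and 10, so HoxA lay above it in the first list and not in the second. HoxB, with 10 and 9 peaks against 95th percentiles of 10 and 14, and HoxC, with 7 and 7 against 8 and 10, did not exceed it in either. In the stressed activated libraries HoxA held 2, 1 and 1 peaks and HoxD 1, 0 and 2, and standard-reared activated replicate 2 had 3 and 2. Outside the 2 longest lists, non-activated libraries held 1 HoxA peak, in stressed replicate 2, and 2 HoxD peaks, in standard-reared replicate 2. HoxB held 10 and HoxC 7 peaks in standard-reared activated replicate 1, with 9 and 7 in stressed non-activated replicate 1.

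Hox peaks were also described by their width and by the height of the read pileup at their summit, solved for Hox peaks alone. Its units are called fragments here, although whether the peak caller counted fragments or single reads is not known. In standard-reared activated replicate 1 their median width was 252 bp and that of the whole list 254 bp, while in stressed non-activated replicate 1 it was 208 bp against 304 bp. The number of fragments at the summit was 4 to 23, with a median of 14 and of 9 in these 2 libraries. A -log10 q of 5 or more was reached by 16 of the 46 Hox peaks of standard-reared activated replicate 1 (34.8%), against 25% of its flank peaks and 38.8% of its whole list. In stressed non-activated replicate 1 it was reached by 7 of the 37 (18.9%), against 67.4% of flank peaks and 68.7% of the list. The 2 libraries thus differed, with Hox peaks near the share of the whole list in the first and far below it in the second. Standard-reared activated replicate 2 had 3 such Hox peaks of 5, and the other 7 libraries had 0.

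The single-cluster log2 ratios to the flanks were 0.02 for HoxA, -1.19 for HoxB, -0.59 for HoxC and 0.37 for HoxD, and none passed (two-sided exact sign-flip permutation p = 0.938, 0.0625, 0.125 and 0.594 over 6 animals; adjusted p = 0.938, 0.313, 0.313 and 0.742).

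Along the clusters, peaks were counted on either side of the middle of each window, and every cluster had peaks on both sides. Of the 98 peaks counted, 83 came from the 2 longest lists, and a region called in several libraries counts more than once. How evenly peaks follow the gene order was not tested. In HoxA, 19 of the 29 peaks lay nearer to the Hoxa2 end of the window and 10 nearer to the Hoxa13 end. In HoxB 11 lay nearer to the Hoxb1 end and 8 nearer to the Hoxb13 end. HoxC was split 7 and 7 between the Hoxc4 and the Hoxc13 side, and HoxD 18 and 18 between the Hoxd1 and the Hoxd13 side. Which gene or promoter a single peak belongs to was not assigned.

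**Figure D3:**
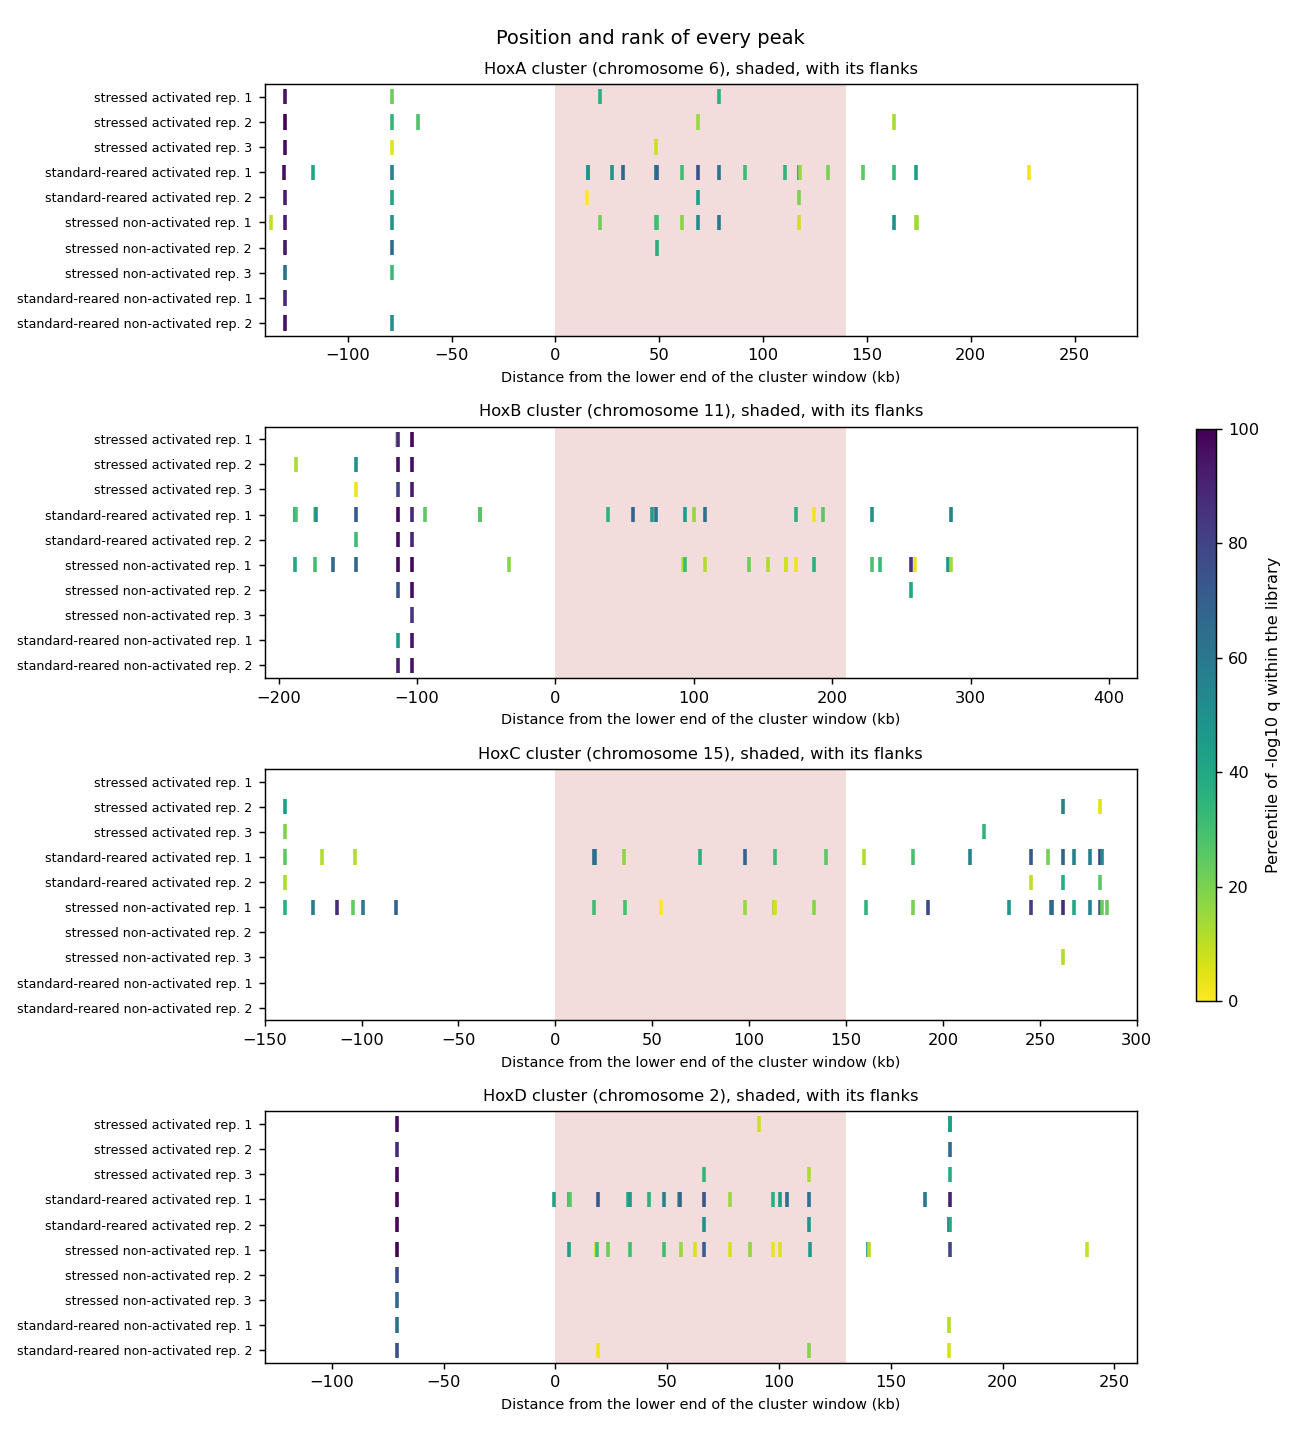
Every peak in the 4 Hox windows (shaded) and their flanks, drawn at its distance in kb from the lower end of the window (x axis) for each library (rows), coloured by percentile of -log10 q within the library. Dark marks (strong peaks) recur down the rows in the flanks of HoxA, HoxB and HoxD, whereas the shaded clusters hold lighter marks (percentile 75.4 at most), most of them in 2 of the 10 rows.

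Merging overlapping peaks of all libraries gave 60 Hox regions, 13 in HoxA, 16 in HoxB, 10 in HoxC and 21 in HoxD. Of these, 38 had a peak in 1 library and 22 (36.7%) in at least 2, against 34.1% of all merged regions of the genome. No Hox region was shared by most libraries. None of the 60 had a peak in 8 or more libraries, against 12.5% of all regions and 6 of 59 regions in the flanks, and none had one in all 10, against 7.1% of all regions and 3 of the 59. These shares are descriptions with no test. The flank regions found in all 10 libraries lay in the lower-coordinate flanks of HoxA (51989000 to 51990027), HoxD (74408784 to 74409592) and HoxB (95966255 to 95967039). They were not at the edge of the clusters, whose windows start at 52.12, 74.48 and 96.07 Mb.

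**Figure D4:**
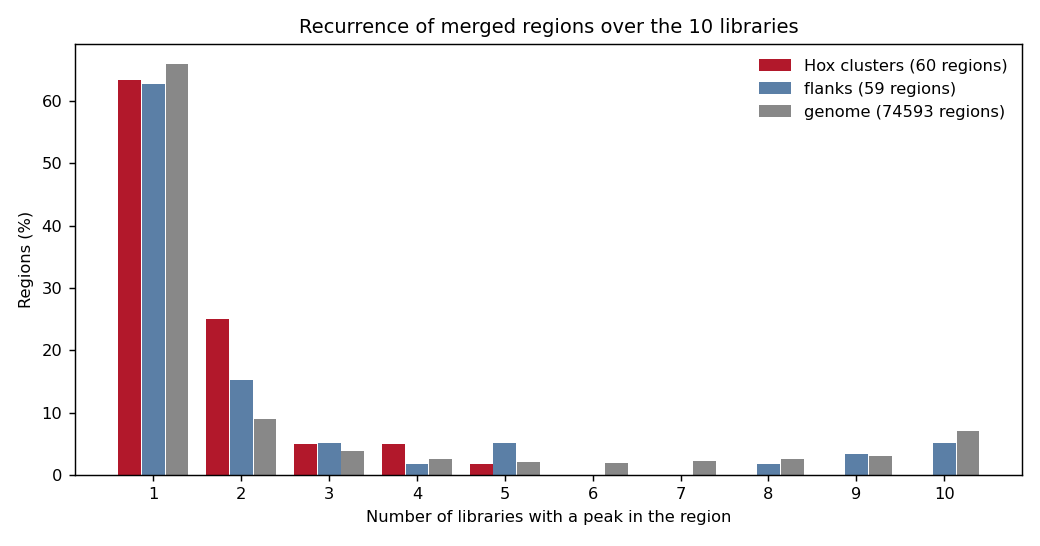
Share of merged regions (y axis, %) by the number of libraries with a peak in the region (x axis), for the 60 Hox regions (red), the 59 flank regions (blue) and all 74593 regions of the genome (grey). Hox regions end at 5 libraries, while 5.08% of flank regions and 7.1% of all regions are found in 10.

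The most recurrent Hox region was in HoxD (chromosome 2, 74592932 to 74594078), 113.5 kb from the lower end of the window and thus towards Hoxd1, with a peak in 5 libraries. It is named here, with the other regions of 3 or more libraries, after its values were seen. Its summit held 9 fragments in stressed activated replicate 3, 15 and 14 in standard-reared activated replicates 1 and 2, 12 in replicate 1 of the stressed non-activated nuclei and 7 in replicate 2 of the standard-reared non-activated ones. Its folds over background in the same order were 4.06, 4.62, 5.74, 5.95 and 4.97, each relative to its own library and known only where a peak was called. It had a peak in both rearings and both classes.

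A second HoxD region (74546184 to 74546570), near the middle of the cluster, gave the highest fold of all Hox peaks. Its fold was 4.84 in stressed activated replicate 3, 5.65 and 6.23 in standard-reared activated replicates 1 and 2, and 9.15 in stressed non-activated replicate 1, where 22 fragments met a background of 1.52. The summits of these 4 peaks lay between 74546306 and 74546364. Another (74498529 to 74499185), towards Hoxd13, had a peak in standard-reared activated replicate 1 and in 1 non-activated library of each rearing, with folds of 5.59, 4.97 and 3.52. The last of these rested on 4 fragments, in standard-reared non-activated replicate 2.

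In HoxA, the region from 52168059 to 52169087 and the one from 52188574 to 52188873 on chromosome 6 each had peaks in 4 libraries. The one at 52188574 had folds of 3.97 in stressed activated replicate 2, 5.26 and 5.66 in standard-reared activated replicates 1 and 2, and 6.10 in stressed non-activated replicate 1. Its summits held 10, 23, 13 and 16 fragments in these libraries. The one at 52168059 had a peak in stressed activated replicate 3 (fold 4.02, 7 fragments), in both longest lists, and in stressed non-activated replicate 2 (fold 5.60), where 6 fragments at a background of 0.25 were the only Hox peak of the library. The regions from 52198455 to 52198928 and from 52237160 to 52237925 had peaks in 3 libraries each.

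HoxB and HoxC had no region in more than 2 libraries. By median percentile, the strongest region of HoxA lay at 52152456 to 52152817, that of HoxB at 96125831 to 96126053 and that of HoxD at 74583122 to 74583689, at percentiles 67.3, 68.1 and 63.1. Each was found in standard-reared activated replicate 1 alone, and the median over libraries favours such regions. Within that library the HoxA region at 52188574 (percentile 75.4) and the HoxD regions at 74546184 (73.9) and 74498529 (72.9) ranked higher. The strongest HoxC region (102829614 to 102830593), at the Hoxc13 end, was found in both longest lists with a median percentile of 63.7. A single Hox region, in HoxD at 74570792 to 74570945, was found in neither of the longest lists, with a peak of fold 3.51 in stressed activated replicate 1.

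The 2 longest lists shared 20 Hox regions. Of the 46 Hox peaks of standard-reared activated replicate 1, 23 (50%) overlapped a peak of stressed non-activated replicate 1, against 54.7% of its whole list and 58.3% of its flank peaks. Of the 37 Hox peaks of stressed non-activated replicate 1, 21 (56.8%) overlapped a peak of standard-reared activated replicate 1, against 42.2% of its whole list and 48.8% of its flank peaks. The libraries come from different animals, rearings and classes, and the difference between these shares was not tested.

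The design sets activated against non-activated nuclei, and stressed against standard-reared mice. In stressed mice, Hox peaks made up 1.44 ± 0.81 of every 10000 peaks in activated libraries and 2.69 ± 4.00 in non-activated libraries (SD, n = 3 each), with activated values inside the range of the non-activated ones. The difference of -1.25 was within the spread (two-sided exact permutation p = 0.9, smallest possible 0.1; adjusted p = 0.9 over 5 comparisons). It turned to 1.04 without stressed non-activated replicate 1. None of the 60 Hox regions was in all 3 libraries of 1 class and in none of the other. Over the genome, 0.059% of regions were in the activated libraries alone and 0.0241% in the non-activated ones alone.

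In standard-reared mice both activated libraries had higher shares than both non-activated ones, at 7.23 ± 6.13 and 0.683 ± 0.966 Hox peaks of every 10000 (SD, n = 2 each). With 2 against 2 the exact permutation test, two-sided, could not go below its p of 0.33, and the adjusted p was 0.780. The difference of 6.54 was 2.21 without standard-reared activated replicate 1. Of the 60 Hox regions, 4 (6.67%) had a peak in both activated libraries and in no non-activated one, against 3.72% of all regions, and 0 showed the reverse, against 0.0576%. The 4 were HoxA regions at 52135373 to 52135696, 52188574 to 52188873 and 52237160 to 52237925, and the HoxD region at 74546184 to 74546570. Without standard-reared activated replicate 2 the number was 41, and in lists of equal length it was 0. The activated lists of this group were longer than the non-activated ones (39783 and 17283 peaks, against 7076 and 14636), so list length and activation cannot be told apart here. Sex was not balanced either. Activated replicate 1 came from a male, and activated replicate 2 and both non-activated libraries came from females.

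Pooled over rearing, activated libraries had 3.76 ± 4.45 and non-activated libraries 1.89 ± 3.07 Hox peaks of every 10000 (SD, n = 5 each). The exact permutation test, two-sided, gave p = 0.468 (smallest possible 0.00794; adjusted p = 0.780). The difference of 1.87 was -0.09 without standard-reared activated replicate 1. Paired within the 4 animals that gave both classes it was -0.22 (two-sided exact sign-flip permutation p = 0.875). No Hox region was in all 5 libraries of 1 class and none of the other, where the genome had 0.00938% for activated and 0% for non-activated libraries.

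Rearing was compared within each class. Among activated nuclei the 3 stressed libraries (0.507 to 1.98 Hox peaks of every 10000, mean 1.44 ± 0.81) all lay below the 2 standard-reared ones (2.89 and 11.6, mean 7.23 ± 6.13). The difference was -5.79 (exact permutation test, two-sided, p = 0.1, which is the lowest that n = 3 against 2 allows; adjusted p = 0.5). It was -1.45 without standard-reared activated replicate 1, which leaves 3 libraries against 1 (exact permutation p = 0.5). Of the 60 Hox regions, 0 had a peak in each of the 3 stressed libraries with none in the standard-reared ones, against 0.125% of all regions. The reverse pattern held for 2 Hox regions (3.33%), against 1.3% of all regions. That number was 38 without standard-reared activated replicate 2, 4 without stressed activated replicate 3 and 0 in lists of equal length.

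Among non-activated nuclei, the stressed libraries had 2.69 ± 4.00 (n = 3) and the standard-reared ones 0.683 ± 0.966 (n = 2) Hox peaks of every 10000 (SD; two-sided exact permutation p = 0.9, smallest possible 0.1; adjusted p = 0.9). The difference of 2.01 was -0.29 without stressed non-activated replicate 1, the library with 37 Hox peaks. No Hox region was in every library of 1 rearing and none of the other. Genome shares were 0.122% for stressed and 0.0107% for standard-reared libraries. Hox peaks of these 5 libraries other than that one numbered 1, 0, 0 and 2. Between the rearings, the activation difference (stressed minus standard-reared) was -7.80 Hox peaks of every 10000 (exact permutation p = 0.167, two-sided, over 120 regroupings). The libraries were regrouped between the classes within each rearing, which presumes no activation difference in either rearing. This p therefore does not test whether the response differs between rearings, and such a difference was not tested.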

How the data were processed

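Bulk ATAC-seq peak lists of 10 mouse libraries were used. The submitters' processing notes name MACS2 2.2.9.1, R 4.4.2, SAMtools 1.13, Bowtie2 2.4.5 and fastp 0.23.4, and the build mm39. The authors deposited 1 list per library, so peaks were not called on pooled samples. The sources used here give no calling settings. In each deposited list the fold is a linear ratio of fragments to background at the summit, p-values and q-values are given as -log10, and the score is -log10 q multiplied by 10, without decimals. They are the authors' own values, used only to rank, filter or describe peaks within 1 list.

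Peaks repeated for several summits were counted once, on chromosomes 1 to 19, X and Y. A peak was in a window with 1 bp of overlap. Ratios to flanks used a pseudocount of 0.5 peaks or 100 bp. Fragments at a summit were solved from fold and p as whole numbers, and the solved p differed from the deposited one by a relative 5.34e-06 at most. They are units of the caller's pileup, and without the calling settings they may be single reads rather than fragments. Total depth is unknown, and a shallow list can lack a peak that a deeper one calls. Whether libraries of 1 class are separate litters is not given, so p-values measure the spread between these libraries or animals. Libraries of 1 animal were averaged in tests against flanks, with all sign flips over animals. Groups were compared by all regroupings of libraries, which ignores that 4 animals gave 2 libraries. Adjustment was by Benjamini-Hochberg.

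Library names show that equal replicate numbers mark 1 animal in the stressed groups. Among the standard-reared libraries the only shared animal gave activated replicate 2 and also non-activated replicate 1. The members, windows and lists were chosen with earlier results of these data known. Regions in at least 8 libraries and the strongest of each cluster were to be named; others were chosen after their values were seen. Gene-level results (promoters with a peak, the low-numbered against the high-numbered members, marker and cofactor lists) and motifs were planned but not run, because the gene and promoter tables are of GRCm38.p6 and no mm39 sequence was used here. Functions were checked on simulated data. Python 3.11.15, NumPy 2.4.6, pandas 2.3.3 and SciPy 1.17.1 were used.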

Additional observations from a re-analysis of the deposited data

Results flagged for a closer look

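Within the activated and the non-activated libraries (5 each), 8 sets of values were checked for a library that stands apart, and chance marks about 1 in 20 such sets. Standard-reared activated replicate 1 stood far above the other activated libraries with 46 Hox peaks (next 5), 11.6 Hox peaks of every 10000 (next 2.89) and 2.27% of the Hox windows covered (next 0.223%). Among non-activated libraries, replicate 1 of the stressed mice did so with 37 Hox peaks (next 2), 7.29 of every 10000 (next 1.37) and 1.71% covered (next 0.0751%). The 6 values come from the 2 longest lists and from measures that move together. At equal list length all 10 libraries had 0 Hox peaks, so that setting cannot tell these 2 libraries from the others. Whether list length accounts for them was not tested.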

How the results depend on the processing

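In lists of equal length (7076 peaks) the log2 ratio of Hox to flank peaks was -2.49 and that of covered bases -3.82. Both were past the threshold (two-sided exact sign-flip permutation p = 0.0313 each). In the other alternatives tried both stayed below 0 and did not pass. With the 2 longest lists left out they were -1.11 and -1.91 (two-sided exact sign-flip permutation p = 0.0625 each). Every animal left was then below 0. This p was the smallest possible with the animals left, so that setting could not pass. Leaving out 1 library gave -0.99 to -0.41 for peaks and -1.72 to -0.99 for covered bases. In the comparisons of Hox peaks of every 10000, leaving out 1 library gave -2.60 to 1.04 for activated against non-activated in stressed mice, 2.21 to 10.9 in standard-reared mice and -0.0854 to 3.22 in all, and -10.1 to -1.45 for stressed against standard-reared in activated and -0.29 to 3.36 in non-activated nuclei. Without the 2 longest lists, chosen after the data were seen, the stressed activation difference was 1.04 and the rearing difference in non-activated nuclei -0.29, both turned. The replicate block over the 4 animals with both classes turned the pooled activation difference to -0.22, and it changed no call. None of the 52 alternatives of these comparisons passed (exact permutation p from 0.0857 to 1). Outside the pooled comparison none of them could, because the smallest possible p was 0.1 or more. The sign-flip over the 4 animals with both classes could not pass either. The count of 52 is thus no measure of how stable these results are. Equal lists gave them no value, because no Hox peak was left. Hox regions of 1 group numbered 0 at equal length in standard-reared activation (4 as deposited) and in rearing among activated nuclei (2), the latter 1 with at least 50% of the region covered. Leaving out 1 library gave 4 to 41 and 2 to 38 for these, 0 to 1 for rearing in non-activated nuclei, and 0 for the others. Where the lists differ in length the cause was not tested. Gene and promoter alternatives were not run.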
